A study of Mus musculus with 24 samples.

Results

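The comparison of MC38-CMAS KO with MC38-WT asked which transcripts differed between MC38 cells in which Cmas was targeted and the parental line. MC38 is a colorectal cancer cell line of the C57BL/6 mouse, and its polyA RNA was sequenced. The comparison took the 3 samples of either line, which are 6 of the 24 samples and 2 of the 8 lines of the series, and every gene with at most 4 zeros among these 6 samples, which left 21648 of 52636 genes. MC38-CMAS KO was made by CRISPR-Cas9 against Cmas, was kept in puromycin and was harvested at passages 4, 5 and 6, whereas MC38-WT had no modification, grew without puromycin and was harvested at passages 7, 8 and 9. Genotype, transfection, puromycin and passage therefore differed together and cannot be told apart here. MC38-MOCK#1, a line that went through CRISPR-Cas9 with no target gene and shares the puromycin and the passages of MC38-CMAS KO, was used only to place values side by side. Whether MC38-CMAS KO is a pool of edited cells or 1 clone, and which guide it received, is not given in the sources used here.

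The values are read counts that the authors scaled by 1 factor per library and rounded, here called normalized counts, and they summed to between 11170653 and 11687830 per sample. From the spacing of the whole numbers, the 6 libraries were estimated to hold 6759058 to 12250612 counted reads, with the lowest depth in MC38-WT sample 3, where 1 read equals 1.67 normalized counts. Pearson's r over genes between samples of the same line lay between 0.967 and 0.981. Of 21 epithelial markers, 14 stayed at 3 normalized counts or fewer in all 6 samples, and Epcam, Krt19, Cdx2, Cldn3, Cldn4 and Cldn7 were at 0, so that the markers of the colon epithelium named by the origin of the line were largely absent from both lines. Summed over the list, epithelial markers reached 337 to 458 in MC38-CMAS KO and 185 to 203 in MC38-WT, and the genes that make this difference, Krt20 and Esrp1, are described below. Leukocyte markers summed to 289 to 300 and 376 to 517, with Cd3e, Cd4, Cd8a, Itgam and Adgre1 at 0 in all 6 samples, endothelial markers to 120 to 135 and 133 to 172 with Cldn5 and Emcn at 0, and fibroblast markers to 1638 to 1996 and 1589 to 3204. The part of other cell types in the results was not tested.

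Cmas encodes the nuclear enzyme that joins free sialic acid to CTP and so makes CMP-sialic acid. This activated sugar is carried into the Golgi by the transporter Slc35a1, where sialyltransferases place it at the ends of N-glycans, O-glycans and glycolipids. Sialic acids are ligands of Siglec receptors on immune cells and are abundant on many tumour cells, and without CMP-sialic acid sialyltransferases have no donor.

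Cmas RNA (ENSMUSG00000030282, GRCm38 chromosome 6, 142756686 to 142775714, plus strand) was lower in the knockout line but was not lost. MC38-CMAS KO samples 1, 2 and 3 held 117, 93 and 126 normalized counts of Cmas, against 388, 306 and 339 in MC38-WT, and the ranges of both lines lay far apart. In the limma fit, Cmas fell by 1.62 on the log2 scale (SE 0.158, n = 3 per line, adjusted p = 0.0164, Benjamini-Hochberg), which leaves 32.6% of the level of MC38-WT with a 95% interval from 25.4% to 41.9%. The 18 samples of the 6 lines with no knockout of Cmas by their labels, MC38-WT included, held between 272 and 416, and only MC38-DKO, in which Cmas and C1galt1c1 were targeted together, came down to a similar level of 122 to 142. Against MC38-MOCK#1, whose samples held 416, 384 and 386, the log2 fold change was -1.82. In bulk RNA, fewer cells that express a gene and less RNA per cell cannot be told apart, and the level of an edited transcript does not measure the enzyme.

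**Figure D1:**
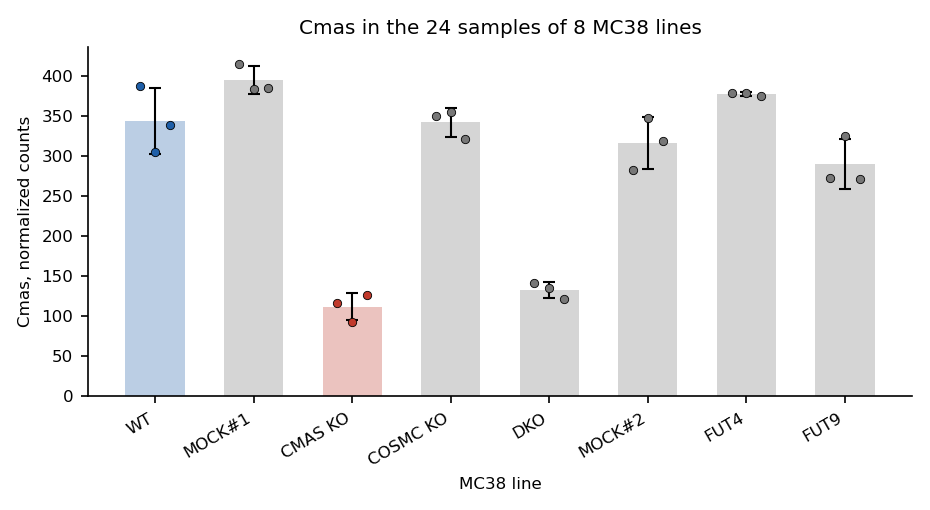
Normalized counts of Cmas (vertical axis) in the 24 samples of 8 MC38 lines (horizontal axis), where points are samples, bars are means and error bars are SD (n = 3). The 3 samples of MC38-CMAS KO lie between 93 and 126 and those of MC38-WT between 306 and 388, and MC38-DKO is the only other line below 272.

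Beyond Cmas, few genes passed the test. Of 21648 genes, 51 were called at an adjusted p below 0.05, which is 0.236% of those tested. Of these, 24 were higher (0.111%) and 27 lower (0.125%) in MC38-CMAS KO, and 44 were protein-coding. The samples of the lines did not overlap for any of the 51. With 3 samples per line this nearly always follows from a call, and over all genes tested 13.8% did not overlap. Absolute log2 fold changes ran from 0.57 to 5.86 with a median of 1.72, and 41 of the 51 exceeded 1. Without the adjustment, 2325 genes (10.7%) had p below 0.05, with 1266 higher (5.85%) and 1059 lower (4.89%). These calls rest on all 6 samples: after leaving out any single one of the 3 MC38-CMAS KO or 3 MC38-WT samples, limma called 0 genes, with lowest adjusted p-values of 0.0938 to 0.302 and 1691 to 2888 genes at an unadjusted p below 0.05. All 51 kept their direction and an unadjusted p below 0.05. Since the lines did not overlap for any of them, leaving out 1 sample could not reverse a direction. The samples left in these fits had also served to choose the 51. When the spread was estimated from all 24 samples of 8 lines, 544 genes passed (2.51%), 304 higher and 240 lower, among them 48 of the 51.

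**Figure D2:**
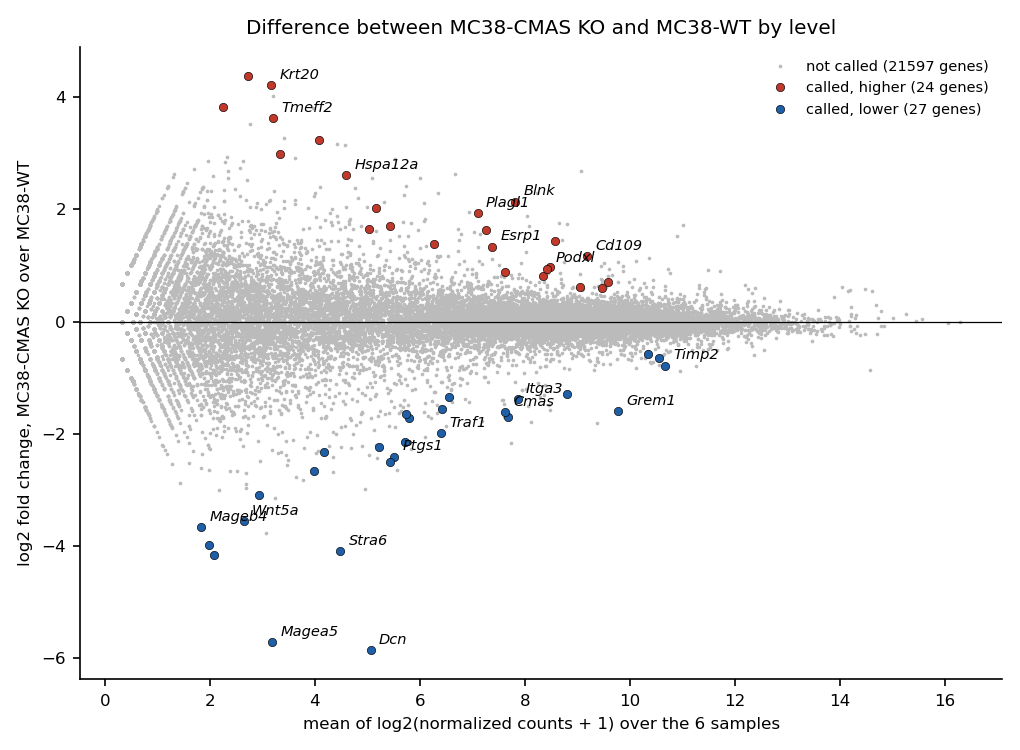
Log2 fold change of MC38-CMAS KO over MC38-WT (vertical axis) against the mean of log2(normalized counts + 1) over the 6 samples (horizontal axis) for 21648 genes, with called genes as large points (24 higher in red, 27 lower in blue) and the rest in grey. Dcn and Magea5 lie lowest, at -5.86 and -5.72, and Krt20 is the highest of the labelled genes, at 4.22.

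Among the glycosylation genes tested, only Cmas was called in the fit of the 6 samples, where 0.236% of all genes were called. Of 12 tested genes for sialic acid synthesis and activation, Cmas was the only one called, and the median log2 fold change of the list was -0.05, against 0.00 over all genes tested. Gne, the first enzyme of the pathway, held 224, 231 and 213 normalized counts in MC38-CMAS KO and 242, 237 and 176 in MC38-WT, a log2 fold change of 0.04 with a 95% interval from -0.30 to 0.38. Nans, the synthase that precedes Cmas, had a log2 fold change of 0.11 (95% interval -0.14 to 0.36), and Slc35a1 one of 0.06 (-0.20 to 0.32). The samples of both lines overlapped for all 3, and the intervals bound how large a difference in either direction could have gone unseen.

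The enzymes that use CMP-sialic acid and those that build the underlying glycans gave 0 calls in limma, where 0.236% of all genes were called. For the 9 sialyltransferases tested, the median was 0.03, with 1 gene higher and 1 lower at an unadjusted p below 0.05. At that level 5.85% of all genes tested were higher and 4.89% lower. For 17 O-glycan enzymes the median was 0.06, with 0 higher and 3 lower at that level, for 20 N-glycan and LacNAc enzymes -0.04, with 1 higher and 0 lower, and for 7 fucosyltransferases 0.01, with 0 in either direction. C1galt1, which extends O-glycans to core 1, held 363, 394 and 343 normalized counts against 334, 415 and 455, and its chaperone C1galt1c1 held 215, 181 and 152 against 208, 202 and 244. Gcnt4 and St6galnac6 came near the threshold and are named here after their values were seen. Gcnt4, a branching enzyme of O-glycans, held 62, 54 and 72 in MC38-CMAS KO and 126, 148 and 162 in MC38-WT, a log2 fold change of -1.20 (adjusted p = 0.052). St6galnac6, which adds sialic acid to glycolipids, held 563, 603 and 592 against 455, 425 and 416, a log2 fold change of 0.44 (adjusted p = 0.131). In the fit of all 8 lines both passed, with an adjusted p of 0.003. Podxl, the heavily sialylated mucin podocalyxin, was the only one of 16 tested carriers of sialic acid to be called: it rose by 0.95 on the log2 scale (SE 0.109, adjusted p = 0.0276), from 265, 253 and 221 normalized counts in MC38-WT to 456, 482 and 484, and MC38-MOCK#1 stood at 418, 495 and 474.

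The genes that fell most had moderate levels in MC38-WT and were at or near 0 in MC38-CMAS KO. Dcn encodes decorin, a small proteoglycan that binds collagen fibrils, and held 129, 417 and 304 normalized counts in MC38-WT but 3, 2 and 6 in MC38-CMAS KO. It fell by 5.86 on the log2 scale (SE 0.487, adjusted p = 0.00887). Stra6, the receptor through which cells take up retinol from its binding protein, held 92, 111 and 75 against 7, 1 and 9 and fell by 4.09 (SE 0.583, adjusted p = 0.0482). No sample of one line reached the range of the other for either gene, as for every gene called. Dcn was the only call among 11 tested fibroblast markers, of which 9 had a log2 fold change below 0 (median -0.38), while Pdgfra held 605, 492 and 527 in MC38-CMAS KO and 401, 804 and 664 in MC38-WT. Wnt5a, a Wnt ligand that mostly signals without beta-catenin, held 16, 24 and 22 against 2, 0 and 1. With a floor of 3 normalized counts per library, it was at least 6.89-fold lower in MC38-CMAS KO (adjusted p = 0.0482).

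A second set near 0 in MC38-CMAS KO lies on the X chromosome. Magea5 and Mageb4 belong to the melanoma antigen families, germ-line genes that many tumours express. Magea5 held 52, 71 and 75 normalized counts in MC38-WT and 0, 0 and 1 in MC38-CMAS KO, which is at least 22-fold lower (adjusted p = 0.00887). Mageb4 held 7, 15 and 15 against 0 in all 3 samples, at least 4.11-fold lower (adjusted p = 0.0385). The uncharacterized gene 4930550L24Rik held 28, 10 and 17 against 0 in each, at least 6.11-fold lower (adjusted p = 0.0276), and Pak3, a p21-activated kinase best known from neurons, held 21, 9 and 17 against 0 in each, at least 5.22-fold lower (adjusted p = 0.0276). Each of these genes was thus read in all MC38-WT samples and, apart from 1 normalized count of Magea5, in none of MC38-CMAS KO. Mageb4, 4930550L24Rik and Pak3 passed the filter on zeros only through MC38-WT, which fixes their direction. Amot, which encodes the YAP-binding scaffold angiomotin, was the fifth gene on X to be called lower, with a log2 fold change of -0.57, and Gm364, at 0.70, was the only one called higher there.

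The promoters of 3 of these X-linked genes are shown because their transcripts were read in every MC38-WT sample and held 0 or 1 normalized count in MC38-CMAS KO. All 3 genes were at 0 in MC38-MOCK#1 as well. Outside MC38-WT, Mageb4 reached at most 2 and 4930550L24Rik at most 5 normalized counts in any line, so MC38-WT was the line that stood apart for both. They run from 250 bases before to 50 bases after the annotated start, come from RefSeq on GRCm38.p6, are printed 5′ to 3′ along the gene, and have CG dinucleotides, the sites of DNA methylation, in capitals.
Magea5 promoter, chrX:155061504-155061803, minus strand: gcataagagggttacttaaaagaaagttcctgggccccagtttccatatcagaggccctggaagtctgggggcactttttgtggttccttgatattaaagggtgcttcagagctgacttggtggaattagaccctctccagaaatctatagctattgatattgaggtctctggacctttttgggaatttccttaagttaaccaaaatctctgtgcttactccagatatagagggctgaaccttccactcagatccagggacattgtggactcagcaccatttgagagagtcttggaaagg
Mageb4 promoter, chrX:86256170-86256469, minus strand: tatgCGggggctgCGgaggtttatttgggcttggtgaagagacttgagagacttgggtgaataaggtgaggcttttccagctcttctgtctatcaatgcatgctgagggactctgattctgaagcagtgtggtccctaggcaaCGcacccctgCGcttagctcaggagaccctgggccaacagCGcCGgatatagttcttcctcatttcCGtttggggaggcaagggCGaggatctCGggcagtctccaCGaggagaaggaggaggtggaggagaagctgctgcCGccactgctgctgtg
4930550L24Rik promoter, chrX:58911211-58911510, plus strand: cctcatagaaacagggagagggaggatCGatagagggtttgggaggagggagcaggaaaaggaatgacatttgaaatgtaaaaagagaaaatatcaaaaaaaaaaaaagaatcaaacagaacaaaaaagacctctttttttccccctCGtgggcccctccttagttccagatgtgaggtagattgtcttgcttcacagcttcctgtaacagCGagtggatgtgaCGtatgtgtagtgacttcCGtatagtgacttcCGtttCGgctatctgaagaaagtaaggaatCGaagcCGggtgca
The window of Magea5 holds 0 CG dinucleotides, that of Mageb4 11 and that of 4930550L24Rik 9, beside a median of 7 over 32851 mouse promoters of the same length. The genes therefore share the X chromosome and the near absence of reads in MC38-CMAS KO, but not the CG content of these windows. Promoter methylation was not measured. All 3 windows lie inside the spans over which reads were counted. On the minus strand, the span of Mageb4 begins at 86305093 and that of Magea5 at 155063145, and on the plus strand that of 4930550L24Rik begins at 58909360. Which start gave rise to the reads was not tested, so the CG counts hold for these RefSeq windows only.

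Other melanoma antigen genes differed in how far apart the lines were. Of 16 Mage A and B genes tested, 2 were called lower and 0 higher, where 0.125% of all genes were called lower. At an unadjusted p below 0.05, 6 were lower and 0 higher, where 4.89% of all genes were lower, and 12 had a log2 fold change below 0, as had 47.1% of all genes. Of the 16, 6 were at 0 in all 3 MC38-CMAS KO samples and so passed the filter on zeros only through MC38-WT, which fixes their direction. Magea10, also on X, held 54, 50 and 59 normalized counts in MC38-CMAS KO and 56, 55 and 60 in MC38-WT, Mageb1 55, 70 and 49 against 29, 89 and 43, and Mageb3 on chromosome 2 held 77, 58 and 74 against 64, 81 and 43. Mageb10-ps, which lies within Mageb4, held 0 in each sample of MC38-CMAS KO and 5, 5 and 10 in MC38-WT, and Magea8 held 0, 1 and 1 against 12, 6 and 5. Both missed the threshold (adjusted p = 0.0559 and 0.158), as did Magea2, which overlaps Magea5 and held 0 in each sample against 8, 4 and 2 (adjusted p = 0.148), and Mageb6-ps, which held 1, 0 and 0 against 2, 4 and 2 (adjusted p = 0.338). The uncalled Mage genes were named after their values were seen. These genes have near-identical copies, and short reads may have been divided between them or lost.

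The remaining lower genes included 3 secreted factors and 2 surface receptors. Grem1, which binds and blocks BMP ligands, held 1161, 1697 and 1766 normalized counts in MC38-WT and 441, 476 and 588 in MC38-CMAS KO and fell by 1.60 on the log2 scale (SE 0.176, adjusted p = 0.025). Vegfc, the growth factor of lymphatic vessels, held 102, 128 and 75 against 28, 34 and 27 and fell by 1.72 (SE 0.252, adjusted p = 0.0482). Bdnf, a neurotrophin, held 134, 144 and 164 against 43, 48 and 57 and fell by 1.56 (SE 0.184, adjusted p = 0.0276). The lowest MC38-WT sample lay well above the highest MC38-CMAS KO sample for each of these 3 secreted factors. The ephrin receptor Epha3 held 37, 40 and 40 against 5, 6 and 5 (log2 fold change -2.66), and Itga3, the alpha subunit of a laminin receptor, held 325, 457 and 350 against 123, 157 and 151 (log2 fold change -1.38), both with an adjusted p of 0.0276.

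Matrix-modifying genes were among them. Sulf2, an extracellular sulfatase that trims heparan sulfate, held 661, 898 and 562 normalized counts in MC38-WT and 338, 238 and 278 in MC38-CMAS KO (log2 fold change -1.30, adjusted p = 0.0482). In the fit of all 8 lines it missed the threshold (adjusted p = 0.26). Timp2, an inhibitor of matrix metalloproteinases, held 2073, 2419 and 1950 against 1215, 1211 and 1299 and fell by 0.78 (SE 0.0985, adjusted p = 0.0349). Both stayed clearly expressed in MC38-CMAS KO, unlike Dcn.

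The intracellular genes that fell have diverse roles. Traf1, an adaptor of TNF receptors and itself an NF-kappaB target, held 148, 205 and 156 normalized counts in MC38-WT and 37, 42 and 46 in MC38-CMAS KO and fell by 1.99 (SE 0.195, adjusted p = 0.0164). Ptgs1, the prostaglandin-forming cyclooxygenase 1, held 93, 101 and 120 against 18, 16 and 23 and fell by 2.41 (SE 0.24, adjusted p = 0.0164). Padi4, which converts arginine in histones to citrulline, held 421, 303 and 390 against 100, 112 and 129 and fell by 1.69 (SE 0.164, adjusted p = 0.0164). All 3 were read at between 16 and 129 in every MC38-CMAS KO sample, well above 0. Asb4, a substrate adaptor of ubiquitin ligases, fell by 2.5, Clip3, a microtubule-associated protein, by 2.15, and Tmem176b, a transmembrane protein, by 2.23. Tmem176a, which overlaps Tmem176b on the other strand, held 35, 58 and 35 in MC38-WT and 11, 9 and 9 in MC38-CMAS KO. The authors excluded reads that overlap more than 1 gene, and the strand setting of the counting is not given. Reads from the shared stretch may therefore be missing from both genes. Psd4 and Acap1, an exchange factor and an activating protein for the small GTPase Arf6, fell by 2.33 and 1.64, the GTPase Rrad by 1.34 and Epb41l1, which links membrane proteins to the cytoskeleton, by 0.65. The pseudogene Gm12571 was the last of the 27.

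**Figure D3:**
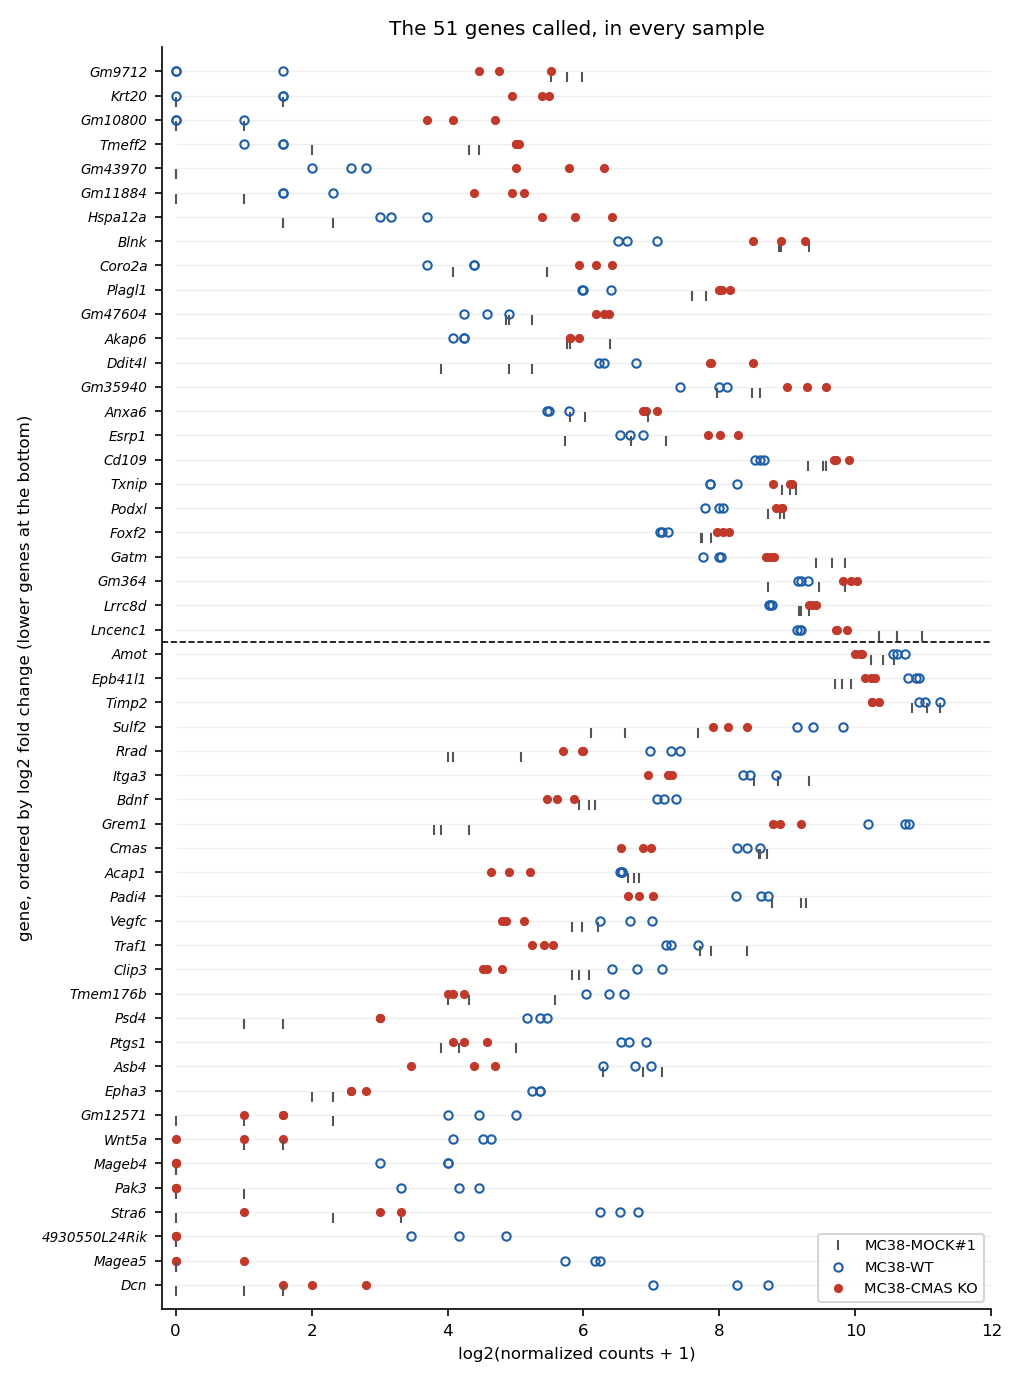
Log2(normalized counts + 1) (horizontal axis) of the 51 called genes (vertical axis, ordered by log2 fold change), where filled red points are the 3 MC38-CMAS KO samples, open blue points the 3 MC38-WT samples and grey ticks the 3 MC38-MOCK#1 samples. Red and blue points do not overlap for any gene, and the grey ticks lie near the red points for some genes (Ptgs1, Podxl, Blnk), near the blue ones for others (Cmas, Timp2, Krt20) and beyond both for Grem1.

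Of the genes that rose most, Krt20 and Tmeff2 were at 2 normalized counts or fewer in MC38-WT. Krt20, a keratin of the differentiated intestinal epithelium, held 2, 0 and 2 normalized counts in MC38-WT and 44, 41 and 30 in MC38-CMAS KO, which is at least 12.8-fold higher (adjusted p = 0.0349). Tmeff2, a transmembrane protein with follistatin-like domains, held 1, 2 and 2 against 31, 32 and 31, at least 10.4-fold higher (adjusted p = 0.0226). Hspa12a, a distant member of the HSP70 chaperones, held 8, 12 and 7 against 58, 85 and 41 and rose by 2.61 on the log2 scale (SE 0.367, adjusted p = 0.048). Krt20, Tmeff2 and, in the other direction, Magea5 were the only 3 genes with at most 3 normalized counts in each sample of one line and at least 30 in each sample of the other.

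Krt20 rose without the other keratins that accompany it in epithelium. Krt8 held 4, 4 and 0 normalized counts in MC38-CMAS KO and 5, 8 and 7 in MC38-WT, Krt18 held 0, 0 and 1 against 0, 1 and 0, and Cdh1 0 in all 3 against 0, 1 and 2, so none of these defining markers was above 8. Esrp1, which directs epithelial splicing, was the second of 14 tested epithelial markers to be called. It held 92, 102 and 117 in MC38-WT and 309, 257 and 226 in MC38-CMAS KO and rose by 1.34 (SE 0.164, adjusted p = 0.032).

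Most other higher genes were expressed in both lines at levels that differed by a small multiple. Plagl1, an imprinted zinc finger transcription factor, held 62, 63 and 84 normalized counts in MC38-WT and 255, 262 and 285 in MC38-CMAS KO and rose by 1.94 (SE 0.163, adjusted p = 0.00887). Cd109, a surface protein that binds TGF-beta, held 401, 386 and 368 against 956, 838 and 820 and rose by 1.17 (SE 0.0975, adjusted p = 0.00887). Blnk, the linker of B cell receptor signalling, held 135, 99 and 90 against 360, 609 and 481 and rose by 2.14 (SE 0.221, adjusted p = 0.019). The B cell receptor gene Cd79a remained at 9 or fewer in all 6 samples. Foxf2, a forkhead factor of mesenchyme, held 141, 138 and 151 against 248, 280 and 264 and rose by 0.88 (SE 0.119, adjusted p = 0.0416).

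Txnip, which binds thioredoxin and limits glucose uptake, held 231, 232 and 304 normalized counts in MC38-WT and 534, 443 and 524 in MC38-CMAS KO (log2 fold change 0.97, adjusted p = 0.0482). Ddit4l, an inhibitor of mTORC1, held 108, 78 and 74 against 358, 232 and 233 (1.64, adjusted p = 0.0416). Gatm, the first enzyme of creatine synthesis, held 255, 216 and 258 against 447, 429 and 411 (0.82, adjusted p = 0.0416). The groups were separate for each of the 3, as for every gene called. The remaining coding genes were Coro2a, an actin-binding coronin (2.02), Akap6, an anchor of protein kinase A (1.65), Anxa6, a membrane-binding annexin (1.39), and Lrrc8d, a subunit of volume-regulated anion channels (0.62), each with an adjusted p between 0.0387 and 0.0482. Gm10800, at 1, 0 and 0 against 16, 25 and 12, is annotated as coding, and Gm9712, Gm11884, Gm43970, Gm47604, Gm35940 and Lncenc1 are pseudogenes, non-coding transcripts or transcripts of unsettled type. Called genes that belong to no list and are not among the largest changes are named to account for all 51 and were chosen after their values were seen.

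Immune genes driven by interferon were lower on average but varied as much within a line as between the lines. Interferon-stimulated genes are switched on together after cells sense interferon. Of 50 tested, 0 were called in limma. At an unadjusted p below 0.05, 6 were lower and 0 higher, where 4.89% of all genes were lower and 5.85% higher. A log2 fold change below 0 was found for 49 of 50, with a median of -0.81, and for 47.1% of all genes. In the fit of all 8 lines 0 were called as well. The mean log2 level of the list was 6.68, 5.81 and 5.53 in MC38-CMAS KO and 5.71, 8.15 and 7.03 in MC38-WT. MC38-WT sample 1 thus lay within the range of MC38-CMAS KO, and the samples did not separate for any of the 50 genes, against 13.8% of all genes.

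Single interferon genes followed the same samples. Isg15, a ubiquitin-like antiviral protein, held 314, 161 and 70 normalized counts in MC38-CMAS KO and 121, 949 and 298 in MC38-WT, with a 95% interval of the log2 fold change from -2.78 to 0.61. The chemokine Cxcl10 held 533, 356 and 227 against 570, 2366 and 1400. For both genes, sample 1 was the lowest of MC38-WT and sample 2 the highest, and the lines overlapped for Isg15 but not for Cxcl10 (adjusted p = 0.243). The 24 interferon-inducible GTPases and p200 genes had a median of -0.87 with 0 called. MHC class I and peptide loading genes had a median of -0.11 with 0 of 24 called, and B2m, the light chain of MHC class I, held 1897, 1681 and 1462 against 1397, 2462 and 1764.

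NF-kappaB genes showed smaller differences with less spread. This family of transcription factors is held in the cytoplasm by inhibitors such as Nfkbia, which is also one of its targets. Of 18 subunits and feedback genes tested, Traf1 alone was called. At an unadjusted p below 0.05, 8 were lower and 0 higher, where 4.89% of all genes were lower. The lines did not overlap for 7 of the 18 (38.9%), against 13.8% of all genes tested. That share was not particular to this list, with 42.1% for integrin subunits and 36.7% for Wnt genes. The mean log2 level of the list was 7.79, 7.80 and 7.80 in MC38-CMAS KO and 7.97, 8.33 and 8.05 in MC38-WT, and the other 18 samples of the series lay between 7.78 and 8.23. Nfkbia held 443, 478 and 482 normalized counts against 704, 866 and 687 (log2 fold change -0.68, adjusted p = 0.063), and Nfkb1 held 1434, 1366 and 1340 against 1736, 1812 and 1631 (-0.32, adjusted p = 0.217). In the fit of all 8 lines, 5 of the 18 passed, all lower. Among 28 chemokines and cytokines, Vegfc was the only call, with 0 higher and 9 lower at an unadjusted p below 0.05 and a median of -0.33. The mean log2 level of these 28 was 4.86, 4.58 and 4.60 in MC38-CMAS KO and 4.69, 5.53 and 5.41 in MC38-WT. For this list, MC38-WT sample 1 lay within the range of MC38-CMAS KO.

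Imprinted genes, which are expressed from 1 parental allele, leaned the other way. Plagl1 was the only one of 19 called, 7 were higher and 0 lower at an unadjusted p below 0.05, where 5.85% of all genes were higher, and the median was 0.22. Zim1 held 33, 44 and 31 normalized counts in MC38-CMAS KO and 7, 7 and 18 in MC38-WT, and Peg10 held 1106, 1240 and 1147 against 733, 967 and 885, but neither passed (adjusted p = 0.192 and 0.236). Cdkn1c held 61, 53 and 52 against 34, 16 and 37, and H19 held 14, 23 and 14 against 4, 10 and 5. The mean log2 level of the list was 5.65, 5.74 and 5.56 in MC38-CMAS KO, above the 4.89, 5.29 and 5.30 of MC38-WT and above the highest of the other 18 samples, at 5.41. This mean takes only the 19 members that passed the filter on zeros in MC38-CMAS KO and MC38-WT. That can favour these lines over the others. Zim1, Peg10, Cdkn1c and H19 were chosen after their values were seen.

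**Figure D4:**
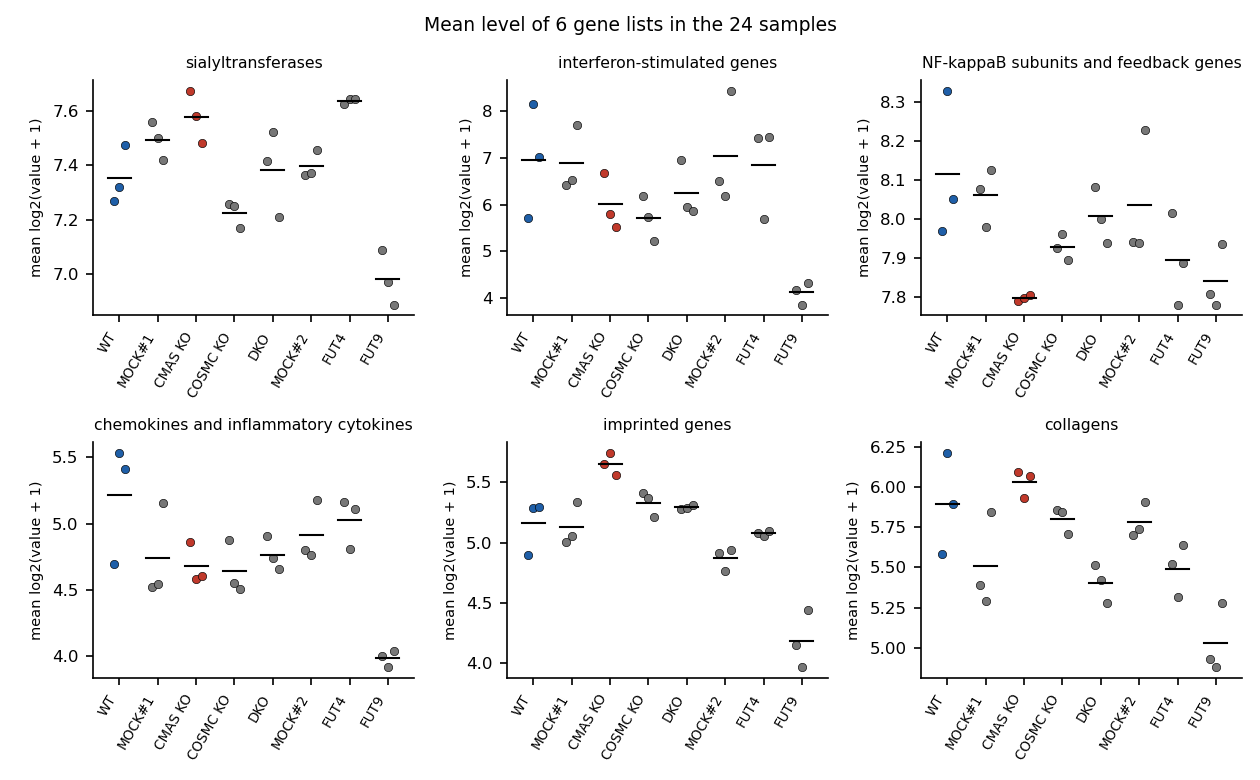
Mean log2(normalized counts + 1) of the tested members of 6 gene lists (vertical axes) in the 24 samples of 8 lines (horizontal axes), where points are samples, black lines are means, MC38-WT is blue and MC38-CMAS KO red. Interferon-stimulated genes spread from 5.71 to 8.15 within MC38-WT, whereas the NF-kappaB list lies at 7.79 to 7.80 in MC38-CMAS KO, below every MC38-WT sample, and the imprinted list lies highest in MC38-CMAS KO. Only members that passed the filter on zeros in MC38-CMAS KO and MC38-WT enter the means.

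Matrix and adhesion lists held 1 or 0 calls each, where 0.236% of all genes tested were called. Of 32 collagens, 0 were called in limma, with 7 higher and 4 lower at an unadjusted p below 0.05. Over all genes tested, 5.85% were higher and 4.89% lower at that level. Col1a1 held 175, 230 and 255 normalized counts in MC38-CMAS KO and 54, 155 and 75 in MC38-WT (log2 fold change 1.33, adjusted p = 0.237). Of 49 other matrix genes Dcn was called, of 28 matrix proteases and inhibitors Timp2, of 19 integrin subunits Itga3, of 47 BMP and TGF-beta genes Grem1, and of 30 Wnt genes Wnt5a, all lower. The medians of these 5 lists ran from -0.25 to 0.11, and single members pulled in both directions: Itga7 held 143, 109 and 137 against 34, 52 and 25 (1.83, adjusted p = 0.0521) and Itga6 1194, 1156 and 1019 against 769, 647 and 656 (0.70, adjusted p = 0.0511), whereas Mmp9 held 3, 1 and 3 against 10, 68 and 28 (-3.14, adjusted p = 0.148). Fn1, the matrix protein fibronectin, held 19373, 13994 and 15163 against 9894, 26791 and 13078. Itga6, Itga7 and Mmp9 missed the threshold and were chosen after their values were seen. AP-1 sites (TGANTCA, searched on both strands) occur in 7.81% of all 32851 promoters. Of the called members of the MAPK, collagen and matrix lists, Dcn and Timp2, only Timp2 has a RefSeq promoter in the table used, and its window holds 0.

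In all, 15 of 40 gene lists held a called gene and 14 of the 51 called genes belonged to a list. For the counts of called members in these and the earlier lists, the share over all genes tested is 0.236%. The lists were chosen with earlier results of these data known. The remaining 25 lists held 0 calls in limma, among them the G1/S and G2/M cell cycle genes (34 and 30 tested, medians -0.08 and 0.01), ribosomal proteins (82, -0.06), nuclear respiratory chain genes (75, 0.01), cholesterol synthesis (24, 0.00), glycolysis and hypoxia genes (38, -0.15), MAPK feedback and immediate early genes (37, -0.17), Hox genes (32, 0.03) and amino acid and ER stress genes (42, -0.10). The 95% intervals of the cell cycle genes had a median half-width of 0.223 for G1/S and 0.230 for G2/M on the log2 scale. Galectins (8, -0.19), immune checkpoint ligands (16, -0.21), fatty acid synthesis genes (14, -0.03), efflux transporters (12, 0.20), NRF2 and glutathione genes (34, 0.15), histones (27, 0.37), leukocyte markers (7, 0.31) and endothelial markers (6, -0.20) also held 0 calls. The p53 targets held Sulf2 as their 1 call of 30, and the Hippo targets Foxf2 as their 1 call of 27, as did the 27 mesenchymal factors and cadherins. The same counts at an unadjusted p below 0.05 were 0 higher and 5 lower for G1/S genes and 1 higher and 1 lower for G2/M genes, where 5.85% of all genes were higher and 4.89% lower.

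Placed beside the other lines, neither MC38-CMAS KO nor MC38-WT was the exception for most of the 51 genes. For 36 genes, both lines had samples inside the range of the 18 samples of the 6 other lines. For 7 genes only MC38-CMAS KO lay outside that range, with Hspa12a, Coro2a, Cd109, Tmeff2, Gm43970 and Gm10800 above it and Traf1 below it. For 8 genes only MC38-WT lay outside, with Dcn, Wnt5a, Pak3, Mageb4, Psd4 and 4930550L24Rik above and Foxf2 and Lrrc8d below. How many of all genes tested lie outside in this way was not counted, so these numbers only describe the 51. In Hspa12a, the other 18 samples held at most 14 normalized counts, against 41 to 85 in MC38-CMAS KO. Krt20, by contrast, averaged 393 in the line labelled FUT4, and Magea5 held 85, 36 and 35 in MC38-COSMC KO but at most 4 in the other 15 samples.

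**Figure D5:**
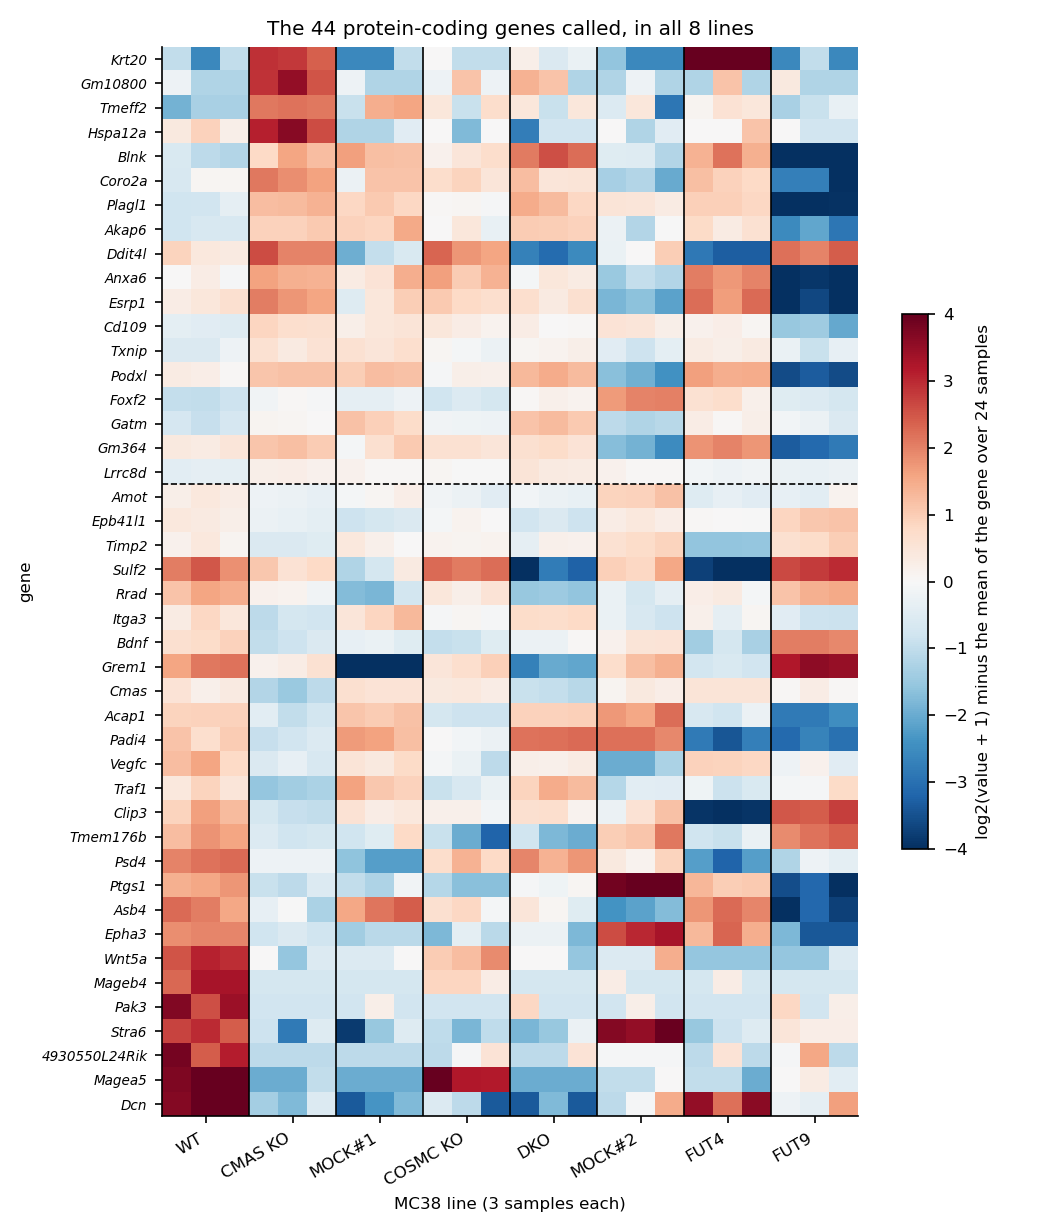
Log2(normalized counts + 1) of the 44 called protein-coding genes (vertical axis), minus the mean of the gene over the 24 samples, in the 3 samples of each of 8 lines (horizontal axis), with red for higher, blue for lower and colours that end at 4 in either direction. Hspa12a is darkest in MC38-CMAS KO, Mageb4, Pak3 and 4930550L24Rik are dark red in MC38-WT alone, and Grem1 is darkest blue in MC38-MOCK#1.

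The comparison with MC38-MOCK#1 uses the same 3 MC38-CMAS KO samples, so its values are given only beside those above. It called 1268 of 22024 genes (5.76%). Traf1 had a log2 fold change of -1.99 against MC38-WT and -2.59 against MC38-MOCK#1 (adjusted p = 0.0017), Padi4 of -1.69 and -2.25 (0.0017), Itga3 of -1.38 and -1.73 (0.0075), Acap1 of -1.64 and -1.82 (0.0045) and Timp2 of -0.78 and -0.77 (0.011). Hspa12a had 2.61 and 4.07 (0.0038) and Krt20 4.22 and 4.75 (0.0051). Other genes had values that depended on the reference. Ptgs1 had -2.41 against MC38-WT and -0.05 against MC38-MOCK#1, Podxl 0.95 and 0.04, Blnk 2.14 and -0.15, and Txnip 0.97 and -0.07. Some called genes had opposite signs and were called in both comparisons: Grem1 had -1.60 and 4.95 (0.0002), Psd4 -2.33 and 1.81 (0.031), Rrad -1.34 and 1.5 (0.046), Epb41l1 -0.65 and 0.41 (0.033), Gatm 0.82 and -0.89 (0.0089), and Lncenc1 0.60 and -0.87 (0.025). For Grem1, MC38-MOCK#1 held 19, 13 and 14 normalized counts. Dcn held 0, 1 and 2 and Magea5 0 in all 3 samples of MC38-MOCK#1.

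The X chromosome held 6 of the 51 called genes, or 11.8%, and 4.33% of the genes tested. Of these 6, Mageb4, Pak3 and 4930550L24Rik were at 0 in all 3 MC38-CMAS KO samples. They passed the filter on zeros only through MC38-WT, which fixes their direction. Among genes with a mean of at least 10, X held 3 of 47 called genes, or 6.38%, and 3.96% of the genes. Median log2 fold changes per chromosome, over 13468 genes with a mean of at least 10, lay between -0.08 on chromosome 6 and 0.09 on chromosome 4. Chromosome 2 held 9 of the 47 called genes at that level, or 19.1%, and 8.27% of the genes, with 7 of the 9 lower. The closest called neighbours were Traf1 and Ptgs1 on chromosome 2, 1.27 Mb apart and both lower, and Pak3 and Amot on X, 1.65 Mb apart and both lower, whereas Gm364 and 4930550L24Rik, 1.42 Mb apart on X, differed in opposite directions.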

How the data were processed

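Polyadenylated RNA was prepared with a stranded kit and sequenced as single 50-base reads. According to the study's methods and the submitters' processing notes, the authors trimmed reads, aligned them with HISAT2 2.0.4 to GRCm38, counted them per gene with featureCounts (Subread 1.5.0-p3), scaled them for library size and TMM in edgeR 3.18.1 and deposited rounded values, which have the unit score and are not raw counts. Count models were therefore not fitted. Reads that overlap more than 1 gene were excluded from the counting by the authors, and its strand setting is not given in the sources used here. Both lines were compared on log2(value + 1) over 21648 genes by limma 3.58.1 (R 4.3.3), with a variance trend and without covariates, at a Benjamini-Hochberg adjusted p below 0.05, and fold changes of low genes are understated on this scale. Samples are separate passages of 1 line, so p-values measure the spread between passages. On simulated data with 21648 genes, 172 of 200 genes changed 2-fold were called in the right direction, with 1 unchanged gene. The changed genes were taken from those with a mean of at least 20, and every gene had the same dispersion of 0.00847. In the real samples the spread differs between genes, so these counts check the procedure and do not give the power of this comparison. Depth was estimated from gaps among the rounded values (error at most 0.262% in 20 simulated libraries).

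Genes were named by rule: Cmas, the 15 largest changes of either direction among called coding genes with a mean of at least 50 in the higher line, called and defining members of 41 gene lists, and genes present in 1 line only. Mitochondrially encoded genes had 0 members tested. Members and lists were chosen with earlier results of these data known. Promoters came from RefSeq (GRCm38.p6) and matched 38 of the 51 called genes. Coordinates are those of the deposited table. Alternatives were other pseudocounts, filters, scalings, variance settings, a replicate block and leaving out each sample.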

Additional observations from a re-analysis of the deposited data

How the results depend on the processing

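The number of calls changed with the setting. Leaving out 1 sample at a time gave 0 higher and 0 lower genes in each of the 6 fits, and the log2 fold change of Cmas lay between -1.71 and -1.49 with adjusted p-values of 0.0938 to 0.34. With the replicate block, 0 higher and 0 lower genes were called (1815 at an unadjusted p below 0.05), and Cmas had -1.62 with an adjusted p of 0.519. Same-numbered samples of the lines did not deviate together (correlations -0.114, -0.0401 and 0.112), so they share only a number. All 51 genes kept their direction and an unadjusted p below 0.05 in these 7 fits. Their direction was fixed, since the lines did not overlap for any of them, and they were chosen on the same samples. A pseudocount of 0.5 gave 13 higher genes and 19 lower. Without the filter on low values the counts were 40 and 43, with a mean of at least 10 they were 47 and 52, with median-of-ratios scaling 43 and 50, with all 8 lines in the fit 304 and 240, without a trend 47 and 36, with robust variances 124 and 114, and with chromosome medians removed 48 and 56. A pseudocount of 5, rescaling to the same total and the stricter threshold left both counts within 1.5 times. The fit without a trend shared 23 of the 51 genes. For single called genes, 476 of 896 values kept direction and call, 420 lost the call and 0 reversed. Reversals were hardly possible, since the samples of the lines did not overlap for any of the 51. With at most 1 and at least 30 normalized counts, 1 gene was present in 1 line only, and with at most 3 and at least 100, 0 were. Depth limits the lowest genes, where 1 read in MC38-WT sample 3 equals 1.67 normalized counts, and the cause of these differences between settings was not tested.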
